A study of Mus musculus with 24 samples.

Results

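The genes described here are 50 genes of ribosome biogenesis and the nucleolus, of 55471 genes in the mouse annotation of the count tables. They were chosen by symbol for what their proteins are known to do, with earlier results of these data known. Each symbol matched a single gene identifier, and all 50 genes are protein-coding. By role they comprise 5 genes of RNA polymerase I (Pol I) transcription, 4 of box C/D and 4 of box H/ACA small nucleolar ribonucleoproteins (snoRNPs), 3 of abundant nucleolar proteins, 12 of the small subunit processome, 5 of small subunit export and late maturation, 13 of early large subunit assembly, and 4 of large subunit GTPases and late assembly.

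Ribosomes are made in the nucleolus, where Pol I transcribes the long precursor of ribosomal RNA (rRNA). SnoRNPs modify this precursor at sites picked by their guide RNAs, and assembly factors fold and cleave it into the small and the large subunit, which leave for the cytoplasm. The fully grown mouse oocyte is transcriptionally silent and passes a compact nucleolar body to the embryo, where rRNA synthesis resumes around zygotic genome activation (ZGA).

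The mRNA level and its m6A mark were measured with SLIM-seq, an m6A immunoprecipitation (IP) for low input, in metaphase II (MII) oocytes, in embryos late in the 1-cell stage (L1C) and in embryos late in the 2-cell stage (L2C). Each stage has 3 IP and 3 input libraries. An input library was made without the IP and is used here for the mRNA level. The paper describes reverse transcription from an oligo-dT primer, which binds the poly(A) tail. A change of the tail and a change of mRNA amount therefore cannot be told apart in these libraries. A second experiment compared L2C embryos that had received Cas13d mRNA with 3 crRNAs against *Ythdc1*, which encodes a nuclear m6A reader, as zygotes (KD, 3 libraries) with L2C embryos that had received Cas13d mRNA alone (Ctrl, labelled NC, 3 libraries). The labels give B6D2F1 for every library. Oocytes came from superovulated 8-week-old B6D2F1 (C57BL/6J x DBA/2N) females and were freed of cumulus cells with hyaluronidase, and embryos were the offspring of B6D2F1 females and B6D2F1 males. The Ctrl embryos carry the nuclease without a crRNA, so they do not control for a crRNA. Libraries hold RNA of pooled oocytes or embryos.

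SLIM-seq libraries held 11107421 to 39739950 estimated counts, and the 5 KD and Ctrl libraries with counts for the whole annotation 8696476 to 14500548. The merged KD table and the file of KD replicate 3 end on chromosome 7, so 24 of the 50 genes were tested with 3 KD libraries and the other 26 with KD replicates 1 and 2. Summed over 10 oocyte markers, inputs held 20440 to 21220 CPM (counts scaled to library size) at MII and 964 to 1027 CPM at L2C, and over 10 markers of the 2-cell embryo 30.5 to 35.8 CPM at MII and 548 to 726 CPM at L2C. Summed over 12 cumulus cell markers the inputs held 46.4 to 53.8 CPM at MII, 37.6 to 39.4 CPM at L1C and 249 to 270 CPM at L2C, where 4 of the 12 reached 1 CPM, *Amhr2* alone had 242 to 263 CPM and *Ptx3* was at 0. Summed over 7 sperm markers they held 55.6 to 73.7 CPM at L2C, where *Prm1* was the 1 of 7 to reach 1 CPM, and *Tnp1* and *Smcp* were at 0 there. The part of these RNAs in the results was not tested. The labels do not say that replicates came from separate animals, so p-values measure the spread between these libraries. In bulk RNA, fewer cells of a type and less RNA per cell cannot be told apart.

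By the coordinates and lengths of its targets, a SLIM-seq count covers a whole gene span with its introns, and how strand was treated in that counting was not given in the sources used here. The spans of 16 of the 50 genes overlap another protein-coding gene and those of 26 overlap no annotated gene, while 7 (*Nop56*, *Nop58*, *Dkc1*, *Ncl*, *Tsr1*, *Wdr43* and *Gnl3*) hold 21 snoRNA genes. *Fbl*, *Nop56*, *Npm1*, *Pes1* and *Imp3* have near-identical copies elsewhere in the genome (at least 95% identity over at least 300 bases), so reads could be split between copies and their levels are uncertain.

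As a share of the input libraries, the 50 mRNAs together were lowest in L1C embryos and highest in L2C embryos. CPM are relative to the other RNAs of a library and do not give amounts per oocyte or embryo. Their summed level was 3487, 3634 and 3938 CPM in the MII inputs, 2463, 2412 and 2543 CPM in the L1C inputs and 10740, 11444 and 11401 CPM in the L2C inputs. The 3 stages did not overlap. By stage mean, 43 genes were highest at L2C, 6 at MII and 1 at L1C, and 28 were lowest at L1C, 18 at MII and 4 at L2C.

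**Figure D1:**
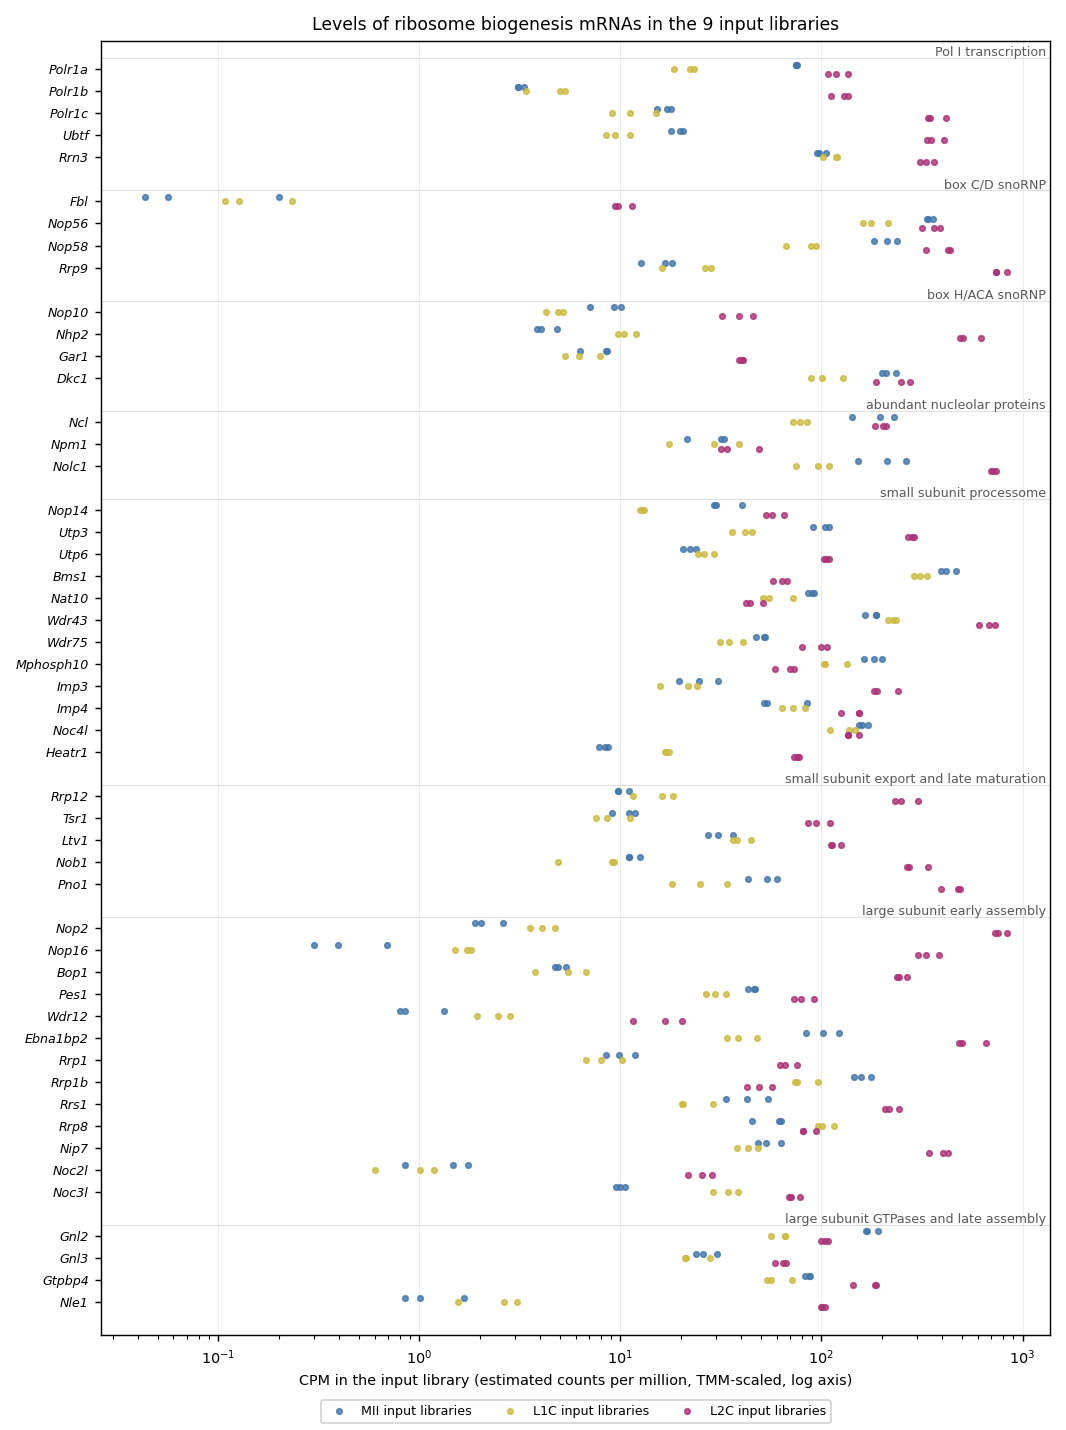
Level of each of the 50 mRNAs in the 9 input libraries, in CPM on a log axis, with genes in rows grouped by role and 1 point per library coloured by stage. L2C points lie farthest right for 43 genes by stage mean, and farthest left for *Bms1*, *Mphosph10*, *Nat10* and *Rrp1b*.

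The comparison of MII oocytes with L1C embryos asks how the maternal store of these mRNAs differed after fertilization. More of them fell than rose. By edgeR's quasi-likelihood test of the input libraries, called at a Benjamini-Hochberg (BH) adjusted p under 0.05, 23 fell, 12 rose and 15 were not called. Of the 19903 genes tested, 24.3% fell and 31.9% rose. The median log2 change was -0.32 over the 50 genes and 0.16 over all genes tested.

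*Polr1a*, the largest subunit of Pol I (GRCm38 chr6:71909053-71984935, forward strand), had 75.3, 75.1 and 75.1 CPM at MII and 22.2, 18.5 and 23.2 CPM at L1C. It fell by 1.82 on the log2 scale (SE 0.13, adjusted p = 7.91e-08), the strongest fall among the 50 genes. *Gnl2*, a nucleolar GTPase of large subunit assembly, had 167, 168 and 191 CPM at MII and 65.8, 56.3 and 65.6 CPM at L1C, a log2 change of -1.49 (SE 0.12, adjusted p = 1.78e-07). *Utp3*, a factor of the small subunit processome, had 90.4, 105 and 110 CPM at MII and 35.9, 45.0 and 41.7 CPM at L1C, a log2 change of -1.31 (SE 0.13, adjusted p = 1.1e-06). In each of these genes all MII libraries lay above all L1C libraries. Falls were also called for *Ubtf*, which binds the rRNA gene promoter, *Polr1c*, *Nop56*, *Nop58*, *Dkc1*, *Nop10*, *Ncl* and *Nolc1*, and the call of *Polr1c* (-0.51) was lost in 4 of 15 alternatives, without L1C input replicate 1 (-0.47) or 2 (-0.37) or MII input replicate 2 (-0.505) or 3 (-0.472).

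Among the 12 that rose, *Noc3l*, of early large subunit assembly, had 9.99, 10.5 and 9.52 CPM at MII and 38.5, 28.9 and 34.2 CPM at L1C, a log2 change of 1.76 (SE 0.15, adjusted p = 2.57e-07). *Nhp2*, a core protein of H/ACA snoRNPs, had 3.83, 4.84 and 4.06 CPM at MII and 9.73, 10.4 and 12.0 CPM at L1C, a log2 change of 1.33 (SE 0.16, adjusted p = 8.44e-06). *Heatr1*, a large scaffold of the small subunit processome, had 8.66, 8.39 and 7.83 CPM at MII and 17.6, 16.9 and 16.6 CPM at L1C, a log2 change of 1.04 (SE 0.13, adjusted p = 1.33e-05). The libraries of the stages did not overlap for these genes, and the spans of *Nhp2* and *Heatr1* overlap *Rmnd5b* and *Lgals8*. *Nop16* also rose, by a log2 change of 1.83, from levels under 1 CPM.

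From L1C to L2C, the step that spans major ZGA, most of the 50 mRNAs rose, many of them by large factors. The test called 43 higher, 4 lower and 3 neither, while of all genes tested 44.1% rose and 38.8% fell. The median log2 change was 2.56 over the 50 genes, with a range of -2.31 to 7.64, and 0.17 over all genes tested. Of the 26 genes whose span overlaps no other gene, 21 rose and 3 fell.

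All 5 genes of Pol I transcription rose, with log2 changes of 1.56 to 5.22. *Ubtf* (chr11:102304560-102319742, reverse strand) had 8.50, 11.2 and 9.43 CPM at L1C and 335, 406 and 350 CPM at L2C, a log2 change of 5.22 (SE 0.16, adjusted p = 1.96e-12). *Rrn3*, which brings Pol I to the promoter, had 120, 102 and 118 CPM at L1C and 332, 309 and 365 CPM at L2C, a log2 change of 1.56 (SE 0.12, adjusted p = 1.55e-08). Its log2 change was the smallest of the 5 genes. The Pol I subunits *Polr1a*, *Polr1b* and *Polr1c* reached means of 121, 126 and 368 CPM at L2C.

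All 4 box C/D genes rose. *Fbl*, the rRNA 2′-O-methyltransferase, had 3, 5 and 2 counts in the L1C inputs and 289, 197 and 451 counts in the L2C inputs. The ratio of pooled levels was 66.3, with an exact 95% interval of 35.9 to 139 that covers counting error only. Mean levels at L1C and L2C were 0.16 and 10.2 CPM for *Fbl*, and 8.76 and 67.5 CPM for its near-identical copy *Gm5812*. *Tulp4*, which matches *Fbl* over 664 bases, had 46.7 and 39.8 CPM. Reads could be split between them, so the size of the *Fbl* rise is uncertain. *Nop58*, a core protein of the box C/D particles, had 93.6, 89.2 and 66.6 CPM at L1C and 424, 330 and 437 CPM at L2C. *Nop56*, its partner, had 176, 161 and 215 CPM at L1C and 317, 389 and 363 CPM at L2C. *Rrp9*, a protein of the U3 snoRNP, had 16.2, 28.3 and 26.3 CPM at L1C and 741, 735 and 840 CPM at L2C. No L1C library overlapped an L2C library in the 4 box C/D genes.

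All 4 box H/ACA genes rose as well. *Nhp2* (chr11:51619735-51623714, forward strand) had 9.73, 10.4 and 12.0 CPM at L1C and 489, 622 and 508 CPM at L2C, a log2 change of 5.66 (SE 0.16, adjusted p = 1.48e-12). *Gar1*, another core protein of these particles, had 5.33, 7.94 and 6.20 CPM at L1C and 40.7, 38.8 and 40.5 CPM at L2C, a log2 change of 2.62 (SE 0.19, adjusted p = 6.67e-09). *Dkc1*, the pseudouridine synthase, went from a mean of 106 CPM to 237 CPM, and *Nop10* from 4.79 CPM to 38.9 CPM.

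Of the abundant nucleolar proteins, *Nolc1*, a chaperone of snoRNPs, had 75.1, 109 and 95.9 CPM at L1C and 695, 735 and 715 CPM at L2C, a log2 change of 2.94 (SE 0.19, adjusted p = 2.89e-09). *Ncl*, which binds precursor rRNA, had 71.9, 84.9 and 78.2 CPM at L1C and 203, 184 and 209 CPM at L2C. *Npm1*, the main protein of the granular nucleolus, had 29.2, 38.9 and 17.5 CPM at L1C and 49.1, 34.0 and 31.8 CPM at L2C, where the stages overlap and the test gave an adjusted p of 0.14.

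Early large subunit assembly held the largest rises. *Nop2*, an rRNA methyltransferase (chr6:125131909-125144753, forward strand), had 3.55, 4.08 and 4.74 CPM at L1C and 733, 837 and 751 CPM at L2C, a log2 change of 7.55 (SE 0.17, adjusted p = 5.06e-13). *Nop16* (chr13:54584185-54590090, reverse strand) had 1.73, 1.81 and 1.51 CPM at L1C and 302, 384 and 330 CPM at L2C, a log2 change of 7.64 (SE 0.20, adjusted p = 7.66e-13). Of the 13 genes of this role 11 rose, *Rrp1b* fell and *Rrp8* was not called. All 4 genes of large subunit GTPases and late assembly rose, from *Gnl2* with a log2 change of 0.73 to *Nle1* with 5.40. So did all 5 genes of small subunit export and late maturation, from *Ltv1* with 1.56 to *Nob1*, the nuclease that makes the end of 18S rRNA, with 5.24.

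The small subunit processome was the role with the most falls. Of its 12 genes 8 rose, 3 fell and *Noc4l* was not called. *Bms1*, its GTPase (chr6:118383381-118419474, reverse strand), had 308, 289 and 336 CPM at L1C and 57.7, 67.5 and 63.6 CPM at L2C, and it fell by 2.31 on the log2 scale (SE 0.12, adjusted p = 3.44e-10). *Mphosph10*, which forms a complex with *Imp3* and *Imp4* in the processome, had 135, 105 and 104 CPM at L1C and 70.1, 58.6 and 73.0 CPM at L2C, a log2 change of -0.77 (SE 0.14, adjusted p = 0.000164). Its partners rose, *Imp3* by a log2 change of 3.31 and *Imp4* by 0.99. *Nat10*, an rRNA acetyltransferase, fell by 0.37 on the log2 scale (SE 0.14, adjusted p = 0.0279). That call was lost in 5 of 15 alternatives, with DESeq2 (-0.24), with library size alone (-0.27) and without L1C input replicate 3 (-0.22), L2C input replicate 1 (-0.32) or L2C input replicate 3 (-0.35). *Rrp1b* had 74.3, 75.3 and 96.0 CPM at L1C and 42.8, 57.0 and 49.1 CPM at L2C, a log2 change of -0.72 (SE 0.15, adjusted p = 0.000335). All L2C libraries lay below all L1C libraries for *Bms1*, *Mphosph10* and *Rrp1b*, while for *Nat10* the stages overlapped, with 55.2, 51.0 and 72.4 CPM at L1C and 42.4, 51.5 and 44.4 CPM at L2C.

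**Figure D2:**
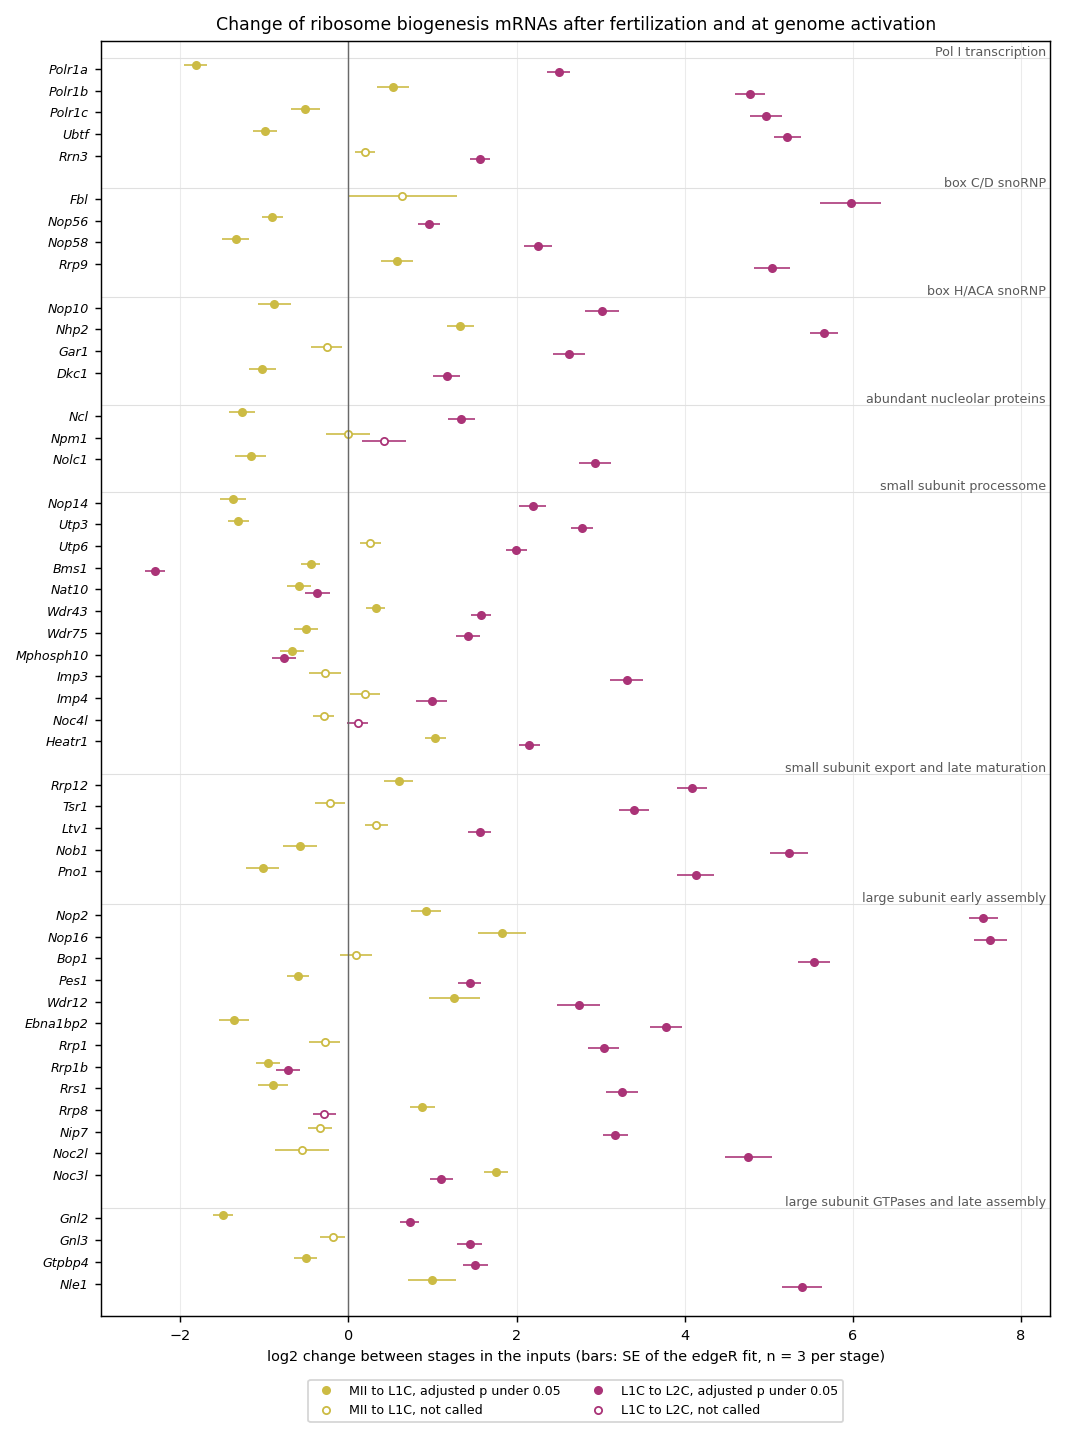
Log2 change of each of the 50 mRNAs in the inputs from MII to L1C and from L1C to L2C, with genes in rows grouped by role, bars of 1 SE and open points for genes not called. From L1C to L2C 43 genes lie to the right of 0 and were called, and *Bms1* lies farthest to the left at -2.31.

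Introns enter the SLIM-seq counts, so L2C inputs were set beside the exon counts of the Ctrl embryos, which are of the same stage but of another experiment and library preparation. *Nop2* had a mean of 773 CPM in the L2C inputs and 82.0 CPM on exons in Ctrl embryos, *Rrp9* 772 and 60.8 CPM, and *Nle1* 102 and 8.72 CPM. For 7 genes the exon value was under 0.2 of the span value and for 8 genes over 2 times as high, *Npm1* at the far end with 38.3 CPM over the span and 1001 CPM on exons. The way of counting and the experiment cannot be told apart here. The L2C input level enters both this ratio of exon to span value and the change from L1C to L2C, so their relation is partly fixed beforehand and is given as a description. By this ratio, the median log2 change from L1C to L2C was 5.22 for the 7 genes under 0.2, 3.04 for the 7 from 0.2 to 0.5, 2.07 for the 28 from 0.5 to 2 and 1.48 for the 8 over 2. The 3 genes without an intron, *Utp3*, *Rrs1* and *Imp3*, rose from L1C to L2C by log2 changes of 2.78, 3.26 and 3.31.

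**Figure D3:**
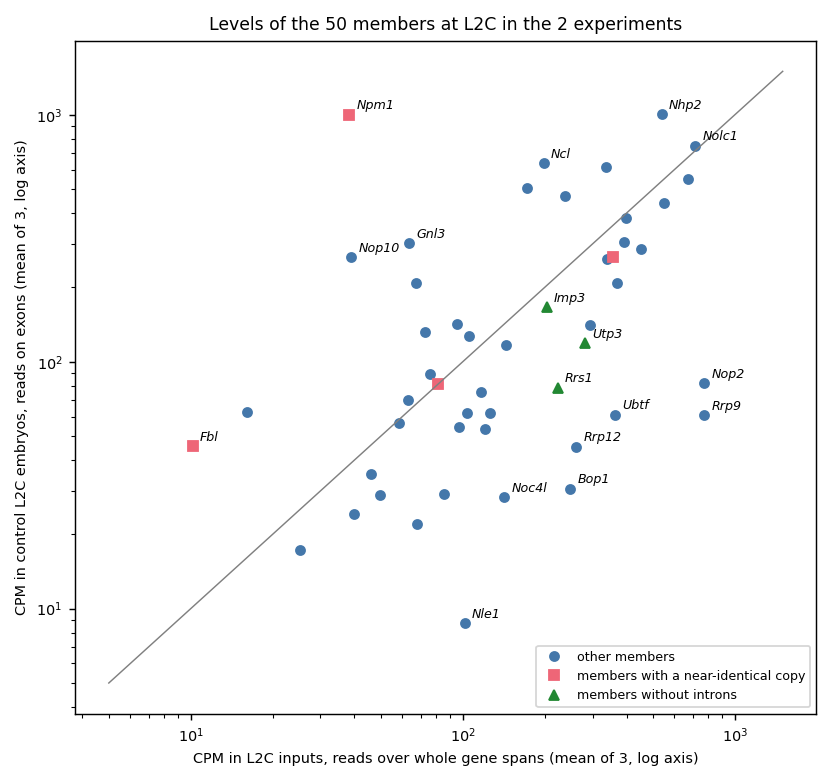
Mean CPM of each of the 50 genes over the whole gene span in L2C inputs (horizontal) against mean CPM on exons in Ctrl L2C embryos (vertical), both on log axes. Squares have a near-identical copy, and triangles (*Utp3*, *Rrs1* and *Imp3*, which also has a copy) have no intron. *Npm1* lies far above the line of equal values (38.3 and 1001 CPM), and *Nop2*, *Rrp9* and *Nle1* lie below it.

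The promoters were searched for 4 short motifs in RefSeq windows of 300 bases (250 before the start and 50 after), which were given for 43 of the 50 genes. CACGTG, the E-box bound by Myc and related factors, was in 9 of 43 windows (20.9%) and in 11.1% of the windows of 11745 protein-coding genes tested. CCGGAAG, the core of ETS factor sites, was in 16 of 43 windows (37.2%) and in 17.7% of the same 11745. The 16 include *Bms1* and *Mphosph10*, which fell from L1C to L2C. The palindromic CGCG element bound by ZBTB33 was in 0 of 43 (1.07% of the 11745), and GCATGCGC, a core of NRF1 sites, in 3 of 43 (6.98% against 5.53%). Both strands were searched. A match is a description of letters and not of a bound site.

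The 250 bases before the start are shown with motifs in capitals (GRCm38.p6, RefSeq). They belong to 4 genes of different roles that rose and whose window holds CACGTG or CCGGAAG, so other promoters need not look alike. The genes are *Nop2* at chr6:125131633-125131882 on the forward strand, *Rrn3* at chr16:13780449-13780698 on the forward strand, *Nolc1* at chr19:46075597-46075846 on the forward strand and *Gar1* at chr3:129831397-129831646 on the reverse strand.
Nop2: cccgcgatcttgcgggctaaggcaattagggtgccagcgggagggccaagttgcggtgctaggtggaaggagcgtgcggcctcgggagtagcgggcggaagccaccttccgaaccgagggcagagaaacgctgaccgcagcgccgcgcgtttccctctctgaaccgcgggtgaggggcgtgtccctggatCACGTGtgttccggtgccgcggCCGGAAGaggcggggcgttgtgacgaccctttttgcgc
Rrn3: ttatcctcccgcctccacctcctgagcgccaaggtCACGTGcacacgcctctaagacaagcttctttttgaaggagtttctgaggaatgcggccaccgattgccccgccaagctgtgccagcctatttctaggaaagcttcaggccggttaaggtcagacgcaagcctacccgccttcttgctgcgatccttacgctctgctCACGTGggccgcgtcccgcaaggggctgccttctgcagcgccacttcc
Nolc1: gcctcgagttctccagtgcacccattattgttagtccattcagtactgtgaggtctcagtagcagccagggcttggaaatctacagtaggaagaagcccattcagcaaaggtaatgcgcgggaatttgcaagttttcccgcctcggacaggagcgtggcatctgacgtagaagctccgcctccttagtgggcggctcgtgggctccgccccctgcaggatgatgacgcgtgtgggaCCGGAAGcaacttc
Gar1: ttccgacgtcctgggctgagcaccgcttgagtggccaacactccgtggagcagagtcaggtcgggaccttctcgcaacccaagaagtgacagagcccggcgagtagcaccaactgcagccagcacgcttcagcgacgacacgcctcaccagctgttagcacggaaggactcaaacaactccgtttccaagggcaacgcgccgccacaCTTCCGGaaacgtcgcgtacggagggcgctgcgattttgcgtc
*Nop2* holds CACGTG at -60 and CCGGAAG at -38 from its start. *Rrn3* holds CACGTG at -215 and -48, and CCGGAAG on the other strand at -5 and 18, not whole within the printed stretch. In *Nolc1* CCGGAAG begins at -14, and in *Gar1* it lies on the other strand at -43, printed as CTTCCGG.

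Over the whole interval from MII to L2C, 40 of the 50 mRNAs were higher in L2C embryos, 5 were lower and 5 were not called. Of all genes tested 47.5% were higher and 37.1% lower, and the medians were 2.196 for the 50 genes and 0.40 for all genes tested. *Nop16* had 0.689, 0.300 and 0.395 CPM at MII and 302, 384 and 330 CPM at L2C, a log2 change of 9.47 (SE 0.23, adjusted p = 3.4e-13). *Bms1* had 395, 415 and 466 CPM at MII and 57.7, 67.5 and 63.6 CPM at L2C, and it fell by 2.75 on the log2 scale (SE 0.13, adjusted p = 4.97e-11). *Rrp1b*, *Mphosph10*, *Nat10* and *Gnl2* were the other genes called lower than at MII. *Nop56*, *Dkc1*, *Ncl*, *Npm1* and *Noc4l* were not called, with log2 changes of 0.05, 0.14, 0.08, 0.42 and -0.18.

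The IP asks which of these mRNAs carry m6A. A log2 IP/input above 0 means that an mRNA took a larger share of the IP than of the input, and it is relative to the other RNAs of the library. In MII oocytes 18 of the 50 genes were enriched, 11 depleted and 21 not called, beside 17.7% enriched and 21.0% depleted of 21950 genes tested. At L1C 13 were enriched and 14 depleted, beside 15.8% and 18.2% of all genes. At L2C 5 were enriched and 26 depleted, beside 22.0% and 22.0% of all genes. All 7 genes with an exon value under 0.2 of the span value, and all 7 from 0.2 to 0.5, were depleted at L2C. The 5 enriched genes were among the 8 over 2, and the other depleted genes lay from 0.5 to 2. The L2C input enters both the ratio and the IP/input, so this is a description. The part of the counting was not tested. The median log2 IP/input of the 50 genes went from 0.11 in MII oocytes over -0.0049 in L1C embryos to -0.46 in L2C embryos, and that of all genes was 0.0, 0.07 and 0.09. With library size alone in place of TMM scaling, 24 were enriched and 9 depleted in MII oocytes, 19 and 7 in L1C embryos and 11 and 20 in L2C embryos, with the median of all genes at 0.20, 0.37 and 0.34. Of the 26 genes whose span overlaps no other gene, 6 were enriched and 6 depleted in MII oocytes (median -0.03), 5 and 8 in L1C embryos (-0.07) and 3 and 13 in L2C embryos (-0.40).

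At L2C the drop was seen in each IP library. The median over the 50 genes was -0.49, -0.46 and -0.50 in the 3 L2C libraries, with 34, 34 and 35 of the genes below 0. In the MII libraries it was 0.17, 0.14 and 0.06, and in the L1C libraries -0.08, -0.03 and 0.11. The interaction of stage and IP tests the change of log2 IP/input itself. Here a loss or gain is a lower or higher IP/input, whether or not the gene was enriched before. From MII to L2C the interaction called a loss for 22 genes and a gain for 2, beside 9.21% and 11.1% of all genes. Not all of the 22 were enriched at MII, and of the 2 *Rrn3* was depleted and *Nop10* not called there. Among the 26 genes without an overlapping gene 9 had a loss and 2 a gain in that step. From MII to L1C the interaction called 7 lower and 1 higher (4.21% and 3.13% of all genes), and from L1C to L2C 14 lower and 0 higher (4.47% and 5.0% of all genes). The 14 were depleted or not called at L1C. In this last step 1 gene, *Rrn3*, was higher at an unadjusted p under 0.05 and DESeq2 also called 0 higher, while 1 was called with protein-coding genes alone and without L1C input replicate 2 or L2C IP replicate 1. The 1 gain from MII to L1C became 0 without MII input replicate 2 or MII IP replicate 2 and in a fit of the compared stages. It became 2 with DESeq2, with library size alone, with no filter and without MII input replicate 1, L1C input replicate 1 or 2 or L1C IP replicate 1. The 14 losses from L1C to L2C became 6 to 9 without L1C input replicate 1, L1C IP replicate 1 or 3, L2C IP replicate 3, any of the L2C inputs or MII input replicate 2. With the replicate number as a block they became 9, and the gains from MII to L2C became 1.

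*Heatr1* had log2 IP/input values of 1.53, 1.60 and 1.58 in MII oocytes, -0.33, -0.28 and -0.42 in L1C embryos and -0.66, -0.61 and -0.53 in L2C embryos. It was enriched at MII and depleted at L1C, the latter call lost in 4 of 24 alternatives, with an interaction of -1.94 (SE 0.15, adjusted p = 1.55e-07). *Noc3l* had 2.00, 1.91 and 1.92 at MII and 0.18, 0.09 and -0.12 at L1C, an interaction of -1.92 (SE 0.21, adjusted p = 1.19e-05). *Rrp12*, of small subunit export (chr19:41862851-41896173, reverse strand), had 0.26, 0.27 and 0.20 in MII oocytes, -1.88, -1.56 and -1.59 in L1C embryos and -2.41, -2.57 and -2.47 in L2C embryos, an interaction from MII to L2C of -2.74 (SE 0.20, adjusted p = 6.36e-08). *Ubtf* had 0.68, 0.68 and 0.45 in MII oocytes, -0.51, -0.61 and -0.27 in L1C embryos and -1.38, -1.21 and -1.35 in L2C embryos, an interaction from MII to L2C of -1.93 (SE 0.17, adjusted p = 4.73e-07).

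Some genes kept 1 call at every stage. *Gnl3* (nucleostemin, a nucleolar GTPase), *Gtpbp4* and *Mphosph10* were enriched at all 3 stages, though *Mphosph10* lost the call at MII in 4 and at L1C in 3 of 24 alternatives. *Gtpbp4*, a GTPase of large subunit assembly, had 0.72, 0.45 and 0.75 in MII oocytes, 0.94, 0.84 and 0.69 in L1C embryos and 0.87, 0.85 and 0.89 in L2C embryos. *Gnl3* had 1.81, 1.64 and 1.62 at MII and 0.47, 0.91 and 0.46 at L2C, where it was still enriched (log2 0.63, SE 0.14, adjusted p = 0.00166). *Nop10* and *Npm1* were the other genes enriched at L2C, where *Npm1* lost the call in 3 of 24 alternatives.

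At all 3 stages 7 genes were depleted, *Nat10*, *Pes1*, *Polr1a*, *Polr1b*, *Rrs1*, *Tsr1* and *Utp3*, of which *Tsr1* lost the call at L1C in 2 and *Utp3* in 5 of 24 alternatives. *Pes1*, which works with *Bop1* and *Wdr12* in early large subunit assembly, had -1.49, -1.53 and -1.58 in MII oocytes, -1.23, -1.39 and -1.31 in L1C embryos and -1.90, -2.02 and -2.08 in L2C embryos. *Bop1* was depleted at MII, a call lost in 16 of 24 alternatives, and at L2C, and *Wdr12* was enriched at MII (1.11, and 0.83 without MII IP replicate 1, where the call was lost). Of the Pol I genes, *Rrn3* was depleted at MII (log2 -0.74) and had values of -0.33 at L1C, a depletion call lost in 7 of 24 alternatives (DESeq2 and library size alone among them), and 0.18 at L2C, where it was not called. Its IP/input rose from MII to L2C by a log2 interaction of 0.92 (SE 0.16, adjusted p = 0.000402), without a call of enrichment at any stage. *Nop10* had an interaction of 0.79 (SE 0.27, adjusted p = 0.0478), a call that was lost with DESeq2 (0.72) and without any of 14 libraries in turn. *Ebna1bp2*, *Fbl*, *Gar1*, *Imp4*, *Nip7*, *Nop16* and *Nop58* were called at no stage.

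*Nop2* had values of -1.15, -1.79 and -0.83 in MII oocytes, -0.42, -0.28 and -0.27 in L1C embryos and -1.78, -1.87 and -1.86 in L2C embryos. Its interaction was 1.09 from MII to L1C (SE 0.28, adjusted p = 0.0207), a call lost without MII input replicate 2 (0.94) or MII IP replicate 2 (0.80), and -1.51 from L1C to L2C (SE 0.21, adjusted p = 0.000246). *Bop1*, which was enriched at no stage, also fell in IP/input from -0.32 at L1C to -1.42 at L2C, with an interaction of -1.10 (SE 0.24, adjusted p = 0.00801). Without L1C IP replicate 2, 9 genes in place of 14 were depleted at L1C, and without L1C input replicate 2, 8 in place of 13 were enriched.

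**Figure D4:**
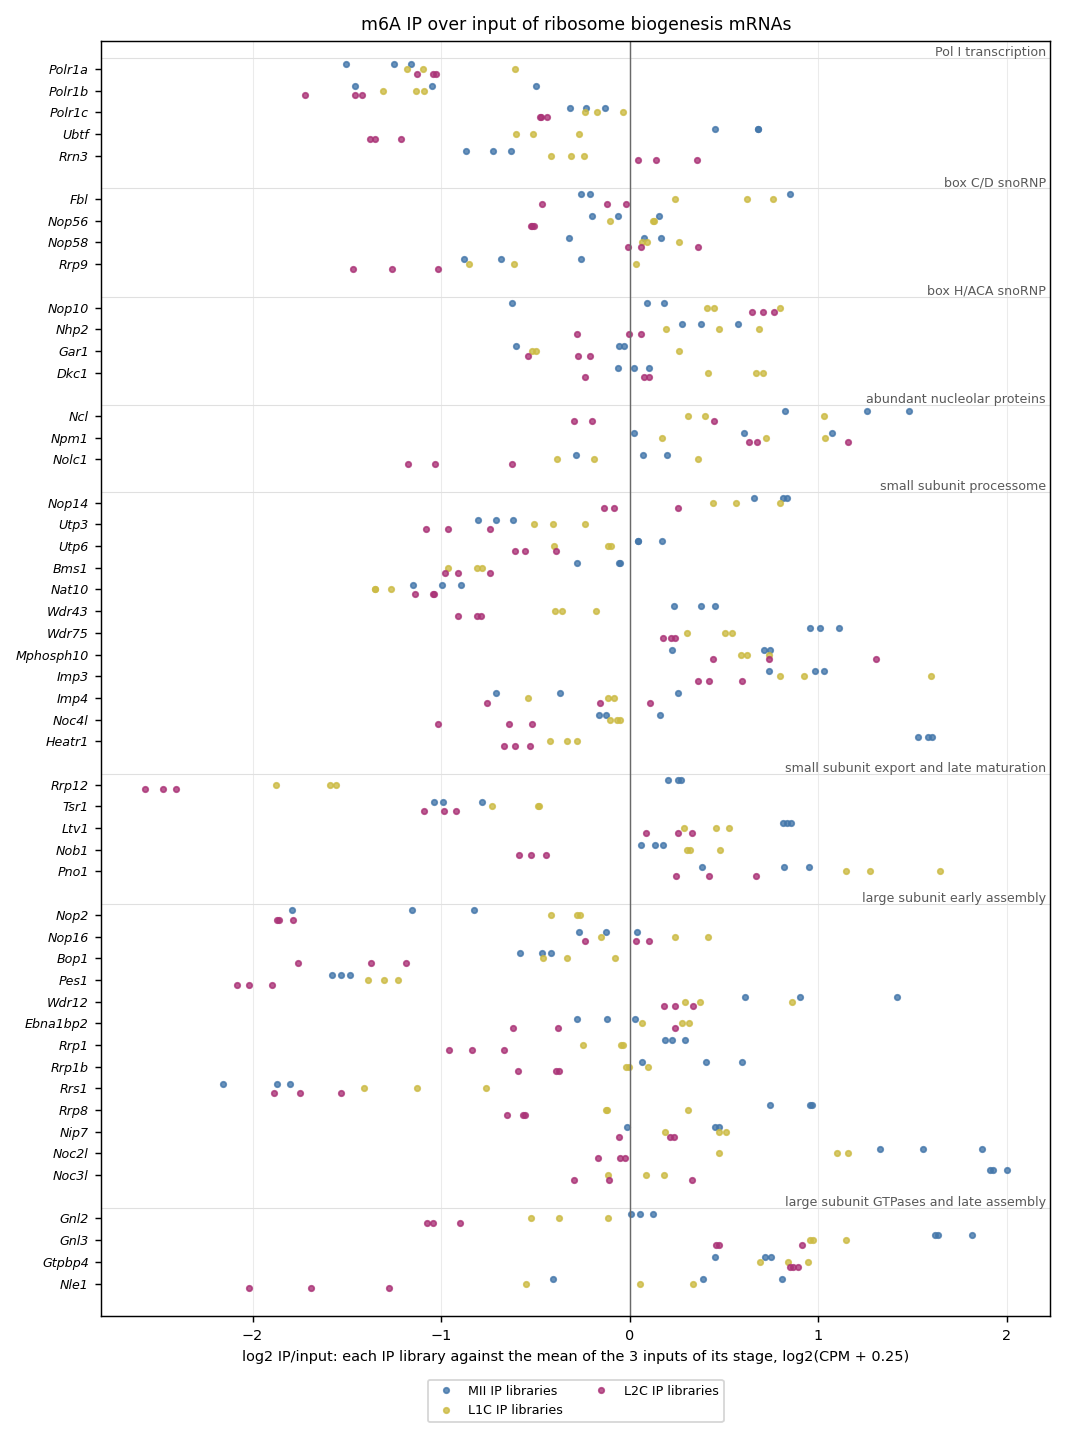
Log2 IP/input of each of the 50 genes (horizontal) in the 9 IP libraries, each against the mean input of its stage, with genes in rows grouped by role and 1 point per IP library coloured by stage. *Heatr1*, *Noc3l*, *Rrp12* and *Ubtf* move to the left from MII to L2C, and *Gtpbp4* stays between 0.45 and 0.94.

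The KD compares L2C embryos with less of the reader *Ythdc1* with Ctrl embryos. *Ythdc1* had 523, 541 and 519 CPM of the merged table in KD and 1080, 1098 and 994 CPM in Ctrl libraries, a log2 change of -1.004 (SE 0.06, adjusted p = 1.34e-10). CPM of this table are scaled to the counts of its own genes. In the whole libraries the summed level of the 50 mRNAs was 14350 and 14590 CPM in KD replicates 1 and 2 and 10690, 10440 and 10870 CPM in Ctrl libraries. KD and Ctrl libraries did not overlap.

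More of the 50 mRNAs were higher than lower in KD embryos. In the merged table, of 24 genes tested, 16 were higher, 2 lower and 6 not called, beside 33.5% higher and 37.4% lower of 7433 genes tested. The median log2 change of the 24 was 0.53, and that of all genes -0.06. Of the 26 genes beyond the table, tested without KD replicate 3, 16 were higher, 0 lower and 10 not called, beside 30.5% and 36.4% of 17074 genes, with medians of 0.39 and -0.09. Here 0 genes were lower at an unadjusted p under 0.05 and DESeq2 called 0 lower as well, while with library size alone 4 genes of the table and 1 beyond it were lower. By the rule of the study (unadjusted p under 0.05 and a log2 change above 1 in size), 3 of the 24 and 2 of the 26 were higher and none was lower, beside 14.7% and 14.4% of all genes higher and 22.5% and 24.5% lower.

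Markers of stage moved with the KD. The 10 oocyte markers summed to 822 to 892 CPM in KD and 1672 to 1804 CPM in Ctrl libraries, and the 10 markers of the 2-cell embryo to 346 to 388 CPM and 1152 to 1194 CPM, in whole libraries without KD replicate 3. Their part in the result was not tested.

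*Gnl2* had 409, 394 and 421 CPM in KD and 162, 155 and 170 CPM in Ctrl libraries, a log2 change of 1.33 (SE 0.07, adjusted p = 2.13e-11). *Wdr75*, a processome subunit needed for rRNA transcription, had 708, 690 and 694 CPM in KD and 379, 370 and 362 CPM in Ctrl libraries, a log2 change of 0.91 (SE 0.06, adjusted p = 3.86e-10). *Bms1* had 374, 373 and 386 CPM in KD and 196, 161 and 190 CPM in Ctrl libraries, a log2 change of 1.05 (SE 0.08, adjusted p = 1.9e-09). KD libraries lay above all Ctrl libraries for these genes.

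*Rrs1* and *Nat10* were the genes that fell. *Rrs1*, of early large subunit assembly, had 156, 138 and 158 CPM in KD and 215, 201 and 196 CPM in Ctrl libraries, a log2 change of -0.44 (SE 0.08, adjusted p = 0.000119). *Nat10* had 71.2, 65.7 and 78.8 CPM in KD and 94.9, 93.6 and 86.3 CPM in Ctrl libraries, a log2 change of -0.35 (SE 0.10, adjusted p = 0.00528).

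Beyond the table, without KD replicate 3, *Rrp1*, of early large subunit assembly, had 55.0 and 53.4 CPM in KD and 21.5, 22.8 and 21.9 CPM in Ctrl libraries, a log2 change of 1.30 (SE 0.10, adjusted p = 4.42e-08). *Pno1*, of late small subunit maturation, had 549 and 532 CPM in KD and 294, 295 and 271 CPM in Ctrl libraries, a log2 change of 0.92 (SE 0.07, adjusted p = 4.8e-08). *Npm1* had 1738 and 1574 CPM in KD and 1043, 1031 and 928 CPM in Ctrl libraries, a log2 change of 0.73 (SE 0.07, adjusted p = 4.66e-07). Each of these stood above all Ctrl libraries.

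By role, with the fits set side by side, all 4 genes of large subunit GTPases and late assembly were higher, 8 of 12 of the small subunit processome, 8 of 13 of early large subunit assembly, 3 of 5 of small subunit export, 3 of 5 of Pol I transcription, 2 of 4 of box C/D and 2 of 4 of box H/ACA snoRNPs, and 2 of 3 abundant nucleolar proteins. Of the Pol I genes *Ubtf* had 106 and 123 CPM in KD and 56.4, 55.5 and 70.9 CPM in Ctrl libraries, while *Polr1a* and *Polr1b* were not called.

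The stage and KD experiments used separate libraries, so their calls were set side by side. Over all 50 genes, 32 were higher, 2 lower and 16 not called in KD. Of the 43 genes that rose from L1C to L2C, 27 were higher, 1 lower and 15 not called, and of the 4 that fell 3 were higher and 1 lower. Of the 5 genes enriched in the IP at L2C (*Gnl3*, *Gtpbp4*, *Mphosph10*, *Nop10* and *Npm1*) 5 were higher in KD, and of the 26 depleted at L2C 14 were higher, 2 lower and 10 not called. Of the 19 not called in the IP at L2C, 13 were higher and 6 not called. The difference between these shares was not tested, and the same shares among all genes are not given. Of all genes tested, 33.5% in the merged table and 30.5% beyond it were higher in KD. The 5 enriched genes all had exon values over 2 times their span values, and *Npm1* lost its IP call in 3 of 24 alternatives.

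**Figure D5:**
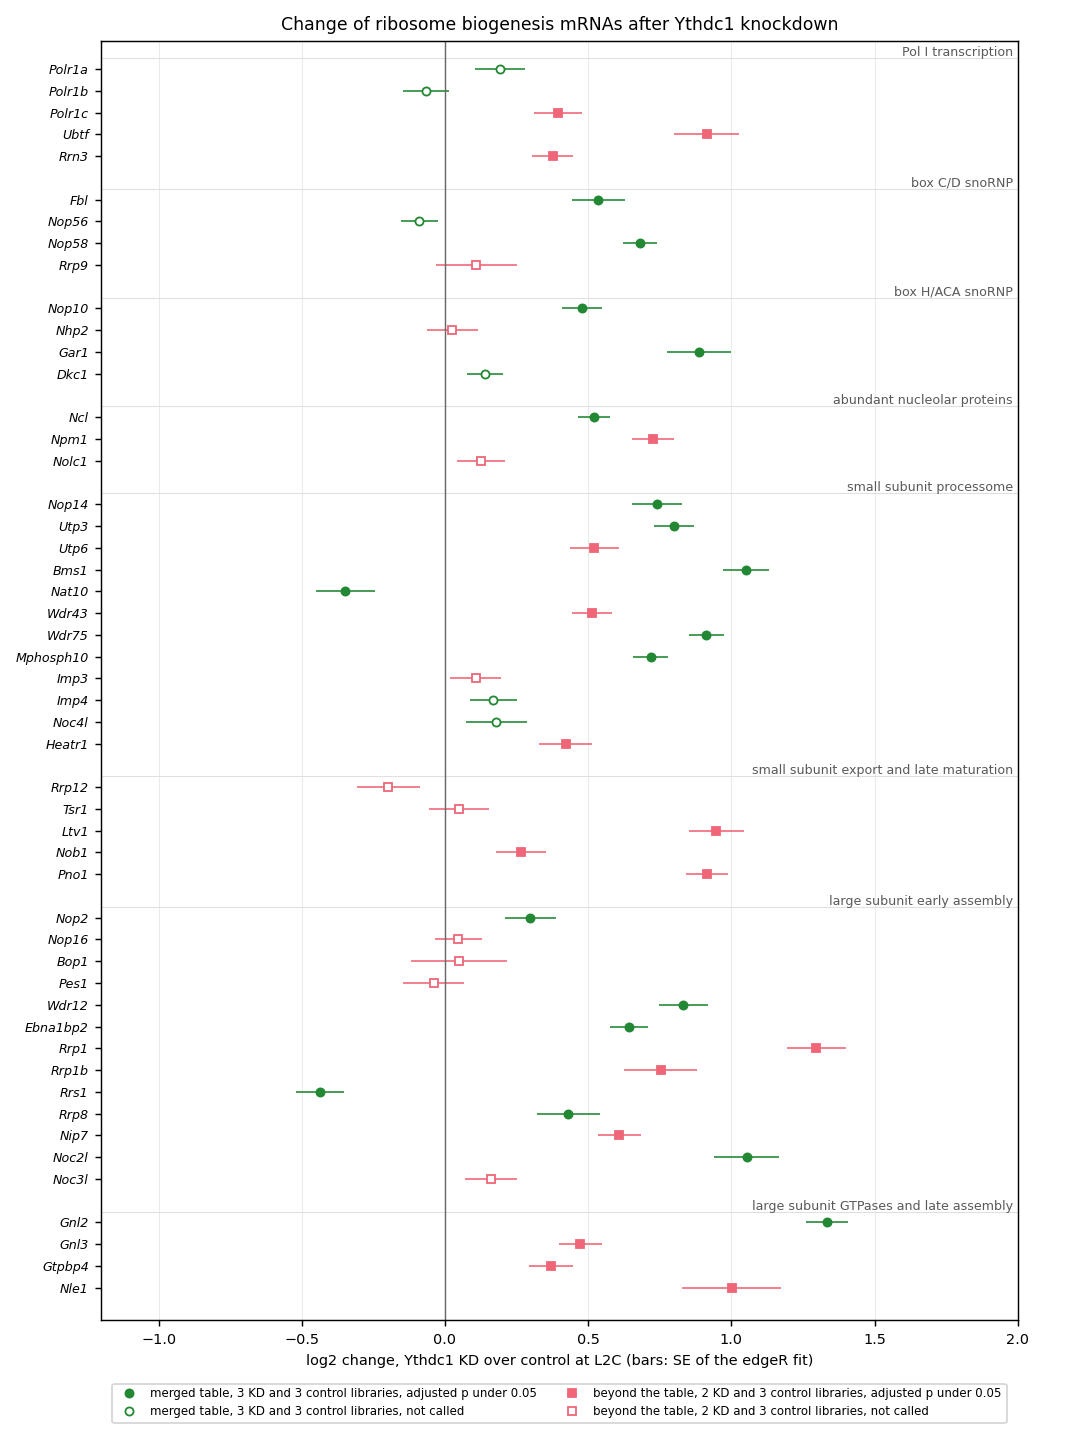
Log2 change of each of the 50 mRNAs in KD against Ctrl L2C embryos, with genes in rows grouped by role, bars of 1 SE, squares for genes tested without KD replicate 3 and open marks for genes not called. *Gnl2* lies farthest to the right at 1.33, and *Rrs1* farthest to the left at -0.44.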

How the data were processed

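Conditions were taken from the sample labels. For SLIM-seq the authors deposited estimated counts from kallisto, unscaled, in which each of the 55471 genes is a single target, over its whole span by the coordinates in the target names. They were rounded to whole numbers. For the KD reads went through Trimmomatic and Hisat2, and the authors deposited raw counts of unstranded reads on exons from featureCounts 2.0.1. Antisense and overlapping genes can therefore share counts.

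Counts were fitted over all genes with edgeR 4.0.16 in R 4.3.3 (TMM scaling, the filter of edgeR on low counts, quasi-likelihood test, two-sided, BH-adjusted p under 0.05), and all 50 genes passed the filter in the fit used for them. The 9 inputs were fitted together, as were the 18 SLIM-seq libraries with a coefficient for each stage's IP and input, and the interaction of stage and IP tested changes of enrichment. The KD was fitted on the merged table of 25739 genes (3 against 3) and, for genes beyond it, on the whole annotation without KD replicate 3. CPM are scaled by TMM. Log2 IP/input per library used 0.25 CPM as a prior. The fits were run on data simulated from edgeR's own fitted means and spread, with few genes changed. This does not check the scaling where many genes change, as between these stages. Replicates of every group differed by more than counting noise (chi-square per degree of freedom of at least 2.77) and correlated at 0.977 or above. Per comparison, up to 3 called genes in each direction with the smallest p and a mean of at least 10 counts were selected, and not all of them have values in the text. Levels are given for the snoRNP, Pol I and abundant nucleolar proteins. *Ubtf*, *Rrn3* and other genes outside that rule are given as examples of their role. The members and lists were chosen with earlier results of these data known.

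DESeq2 1.42.0, other scaling, filters, gene sets and call rules, a replicate block and leaving out each library were the alternatives. Copies were found with minimap2 2.31. Python 3.11.15 was used for tables and figures, with pandas 2.3.3, numpy 2.4.6, scipy 1.17.1 and matplotlib 3.10.9.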

Additional observations from a re-analysis of the deposited data

Results flagged for a closer look

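The change of IP enrichment between stages, tested by the interaction of stage and IP, differed from 0 for 8 genes that were named by the rule on p, in 12 gene and stage comparisons. From MII to L1C the log2 interaction was 1.09 for *Nop2*, -1.94 for *Heatr1*, -1.98 for *Rrp12* and -1.92 for *Noc3l*. From L1C to L2C it was -1.51 for *Nop2*, -0.84 for *Ubtf* and -1.10 for *Bop1*. From MII to L2C it was 0.92 for *Rrn3*, 0.79 for *Nop10*, -2.19 for *Heatr1*, -2.74 for *Rrp12* and -1.93 for *Ubtf*. The call was lost in 17 of 24 alternatives for *Nop10* and in 3 of 24 for *Nop2* from MII to L1C. The comparisons share libraries of a stage, so they are not independent of each other.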

How the results depend on the processing

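Of 1072 values of named genes under the alternatives, over 56 gene and comparison pairs, 0 changed sign, 1052 kept their side of the threshold too, and 20 lost the call. The lost calls were *Nop2* from MII to L1C (0.94, 0.80 and 0.99 without MII input replicate 2, without MII IP replicate 2 and in a fit of the compared stages) and *Nop10* from MII to L2C (17 alternatives, 0.57 to 0.82). Of the counts of genes, 49 moved by over 1.5 times and 376 did not. With library size alone, 7 genes were depleted and 19 enriched at L1C, which turned the balance there (median 0.29 in place of -0.0049). In that setting 11 were enriched at L2C, 2 rose in IP/input from MII to L1C, and 4 (merged table) and 1 (beyond it) were lower in KD. In fits of the compared stages, 9 were depleted at L1C, and 0 from MII to L1C and 1 from MII to L2C rose in IP/input. With DESeq2, 2 and 1 rose in IP/input in those steps, and without a filter 2 did from MII to L1C. With protein-coding genes alone, 1 rose in IP/input from L1C to L2C. By the rule of the study, 3 genes of the table were higher and 0 lower in KD, and 2 beyond it were higher. The cause was not tested. With the replicate block, 9 in place of 14 genes fell in IP/input from L1C to L2C and 1 in place of 2 rose in it from MII to L2C. Same-numbered libraries correlated between -0.378 and 0.388 in their deviations from the group mean. The study ties inputs and IPs to shared batches without saying which numbers match, so the numbers were not taken to pair the libraries.

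Leaving out 1 library at a time, enriched genes numbered 14 to 18 at MII, 8 to 14 at L1C and 4 to 6 at L2C, and depleted genes 9 to 11, 9 to 14 and 24 to 26. Genes with a rise and a fall of IP/input numbered 0 to 2 and 7 to 9 from MII to L1C, 0 to 1 and 6 to 13 from L1C to L2C, and 1 to 2 and 20 to 24 from MII to L2C. In the inputs, 10 to 12 rose and 21 to 25 fell from MII to L1C, 43 to 44 and 3 to 5 from L1C to L2C, and 40 and 5 from MII to L2C. In KD, 16 to 19 were higher and 2 lower in the table, and 15 to 17 and 0 beyond it. Low counts at MII and L1C limit *Fbl*, *Nop16*, *Wdr12*, *Nle1* and *Noc2l*.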

Other observations

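Another 80 genes of ribosome biogenesis that are not among the 50 were counted as a list, also chosen with earlier results of these data known. From MII to L1C 21 rose and 35 fell (median log2 change -0.21), beside 31.9% and 24.3% of all genes, and from L1C to L2C 72 rose and 5 fell (2.55), beside 44.1% and 38.8%. In the IP 20 were enriched and 24 depleted in MII oocytes (median 0.08), beside 17.7% and 21.0% of all genes. At L2C 14 were enriched and 42 depleted (-0.37), beside 22.0% and 22.0%, and from MII to L2C 4 gained and 23 lost enrichment, beside 11.1% and 9.21%. In KD 29 of the 32 in the merged table were higher (0.65), beside 33.5% of all genes, and of the 48 beyond it, tested without KD replicate 3, 33 were higher and 4 lower (0.46), beside 30.5% and 36.4%.

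Of 6 Myc factors and partners, which bind the E-box, 2 rose and 3 fell from L1C to L2C (median log2 change -0.73), and their summed level was 402 to 498 CPM at L1C and 197 to 218 CPM at L2C. *Myc* had 2.83, 2.65 and 2.53 CPM at L1C and 7.90, 9.71 and 9.97 CPM at L2C, a log2 change of 1.78 (edgeR, adjusted p = 3.97e-05). *Mycn* had 0.80, 0.97 and 0.70 CPM at L1C and 9.86, 10.7 and 11.7 CPM at L2C, a log2 change of 3.69 (edgeR, adjusted p = 1.42e-08). In the same step *Max* had a log2 change of -1.31, *Mxd1* of -1.304 and *Mycl* of -1.49, and *Mnt* was not called. In KD the summed level was 60.6 to 66.9 CPM without KD replicate 3, against 88.0 to 95.6 CPM in Ctrl libraries. Without KD replicate 3, *Myc* was higher (7.31 and 7.17 CPM against 2.05, 1.38 and 1.77 CPM, log2 change 2.05, edgeR adjusted p = 1.33e-05). *Mycn* was lower (3.33 and 3.53 CPM against 9.57, 9.80 and 8.75 CPM, log2 change -1.45, edgeR adjusted p = 3.82e-05), as was *Max* (-0.87), while *Mnt* was not called. In the merged table *Mycl* was lower, at 0 CPM in every KD library and 3.90, 5.78 and 6.66 CPM in Ctrl libraries, and *Mxd1* was not called.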
